A study of Mus musculus with 6 samples.

Results

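Chaperones of the Hsp70, Hsp90 and Unc45 families were followed in ventricles of mouse embryos that lack skNAC, the long muscle form of the nascent polypeptide-associated complex alpha gene Naca. The members are 10 genes taken by name: Hspa8, Hsph1, Dnaja1, Dnajb1, Hsp90aa1, Hsp90ab1, Unc45a, Unc45b, Hspd1 and Hspe1. Every probe set that the platform annotation gives to exactly 1 of these symbols was used, which found 24 of the 45101 probe sets on the array, for 9 of the 10 genes and of the 18194 symbols that stand alone on a probe set. No probe set carried the single symbol Hsp90ab1, so this gene was not analysed here. A probe set is a group of short probes that together read 1 transcript sequence.

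The arrays were Affymetrix GeneChip mouse arrays with 1 colour. Per the labels, 3 arrays held ventricle RNA of embryos with a targeted skNAC deletion (called knockout here), which die with heart defects by E12.5, and 3 held ventricle RNA of wild-type littermates. From each, 500 ng of total RNA was amplified and labelled with biotin. All embryos were of strain 129SvEv and stage E11.5, and the labels name no drug, Cre driver or other allele. Sample numbers given by the labels name the arrays: 1, 26 and 66 are knockout, and 13, 23 and 57 are wild-type. The labels do not say how many hearts went into an array or which samples shared a litter, so p-values measure the spread between these samples, which may be technical in part.

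Hsp70 proteins bind short hydrophobic stretches of unfolded chains in cycles driven by ATP. J-domain proteins deliver the chains and speed the cycle, and Hsp110 proteins reload Hsp70 with ATP. Clients that need more help pass to Hsp90, and in muscle the co-chaperone Unc45b links Hsp90 to the myosin head, while Unc45a serves non-muscle myosins in most tissues. In zebrafish, loss of Unc45b, of a muscle Hsp90 alpha or of the methyltransferase Smyd1 disturbs thick filament assembly, and Smyd1 binds skNAC. Hspd1 and Hspe1 form the barrel and the lid of the chaperonin that folds proteins imported into mitochondria. Heat shock factor Hsf1 raises many of these genes under stress through repeats of the letters GAA and TTC in their promoters.

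Hspd1 and Hspe1 are neighbours that point away from each other and are known to share a promoter region. The stretch below is shown for that reason. RefSeq promoter windows of build GRCm38.p6 were matched by symbol for 7 of the 10 members, in 12 entries. The 250 bases before each start site were searched on both strands for GAANNTTC and TTCNNGAA, each of which reads the same on either strand. The same 18 bases lie before a start site of both genes and hold 3 overlapping matches, marked in capitals in each gene's own direction.
Hspe1 (chr1:55088048-55088077, + strand): gccacggtccgTTCTAGAACCTTCCGGAAg
Hspd1 (chr1:55088058-55088087, - strand): cgcgcggggccTTCCGGAAGGTTCTAGAAc
The first match begins 89 bases before the Hspe1 start site and 144 bases before that Hspd1 start site. A run of at least 3 alternating GAA and TTC units, each spaced by 2 bases, occurred in these 2 entries and in 0.466% of all 32851 promoter windows of 250 bases. Hsph1 and Dnaja1 held 1 match each, for Dnaja1 before the start site at 40722468 and not before its others. Counted by window, either short motif occurred in 5 of the 12 member entries, some of which share a match, and in 12.8% of all windows.
Hsph1 (chr5:149636351-149636380, - strand): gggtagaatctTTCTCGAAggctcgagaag
Dnaja1 (chr4:40722333-40722362, + strand): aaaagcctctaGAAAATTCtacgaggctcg
The window of Unc45b, the striated muscle member, is shown whole because neither set of letters was found in it.
Unc45b (chr11:82911003-82911252, + strand): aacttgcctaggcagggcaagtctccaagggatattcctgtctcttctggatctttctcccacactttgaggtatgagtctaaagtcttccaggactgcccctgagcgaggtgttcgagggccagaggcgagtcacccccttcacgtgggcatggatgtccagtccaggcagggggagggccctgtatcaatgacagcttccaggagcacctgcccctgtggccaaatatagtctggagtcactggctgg
Neither motif was found in the windows of Unc45a and Dnajb1 either. A match in letters is a description and not a bound site.

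Signals are linear MAS5 intensities as deposited, scaled array by array. Array medians ran from 92 to 113.9 in the knockout and from 95 to 111.3 in the wild-type. Knockout 66 stood apart, with a score of 57.7 on the first principal component against -25.0 to 4.82 for the other 5 arrays. The brighter Naca probe set read 9047, 9034 and 8595 in knockout 1, 26 and 66, against 8385, 8566 and 8286 in wild-type 13, 23 and 57. No source used here says whether it reads the deleted part, so it is no check of the genotype. All 10 ventricular cardiomyocyte markers were above the signal filter, and their summed signal was 90537 to 100633 in the knockout and 85749 to 94085 in the wild-type. The erythroid list summed to 54509 to 70953 in the knockout and 49204 to 58452 in the wild-type, with 5 of its 6 genes above the filter. The skeletal muscle and liver lists had 1 of 4 genes each above it. The cushion mesenchyme list and the control ratios below did not overlap between genotypes. The 6 cushion mesenchyme markers summed to 2228 to 3129 in the knockout and 3767 to 3972 in the wild-type. The 3' to 5' signal ratio of the actin control was 2.49 to 2.57 in the knockout and 2.05 to 2.24 in the wild-type, and that of the Gapdh control was 1.28 to 1.45 in the knockout and 1.12 to 1.2 in the wild-type.

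No chaperone member passed the test between knockout and wild-type ventricles, and among the 21 probe sets tested only that of Hspd1 had all knockout readings on 1 side of all wild-type readings. Differences below are knockout minus wild-type on the log2(signal + 16) scale ± SE from limma, two-sided, with p-values adjusted by Benjamini-Hochberg over all 22518 probe sets whose mean signal passed 100.3. Of the 24 member probe sets 21 passed that filter, and 0 had an adjusted p under 0.05, as was so for 0% of all kept probe sets. At an unadjusted p under 0.05 stood 1 of the 21, that of Hspd1, where 4.85% of all kept probe sets did, 2.17% higher and 2.68% lower in the knockout. The genotypes did not overlap in 1 of the 21, again Hspd1, where this held for 10.5% of all and, with the knockout higher, for 4.96%. The member count is therefore not above the background. The smallest adjusted p of any member in limma was 0.976.

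**Figure D1:**
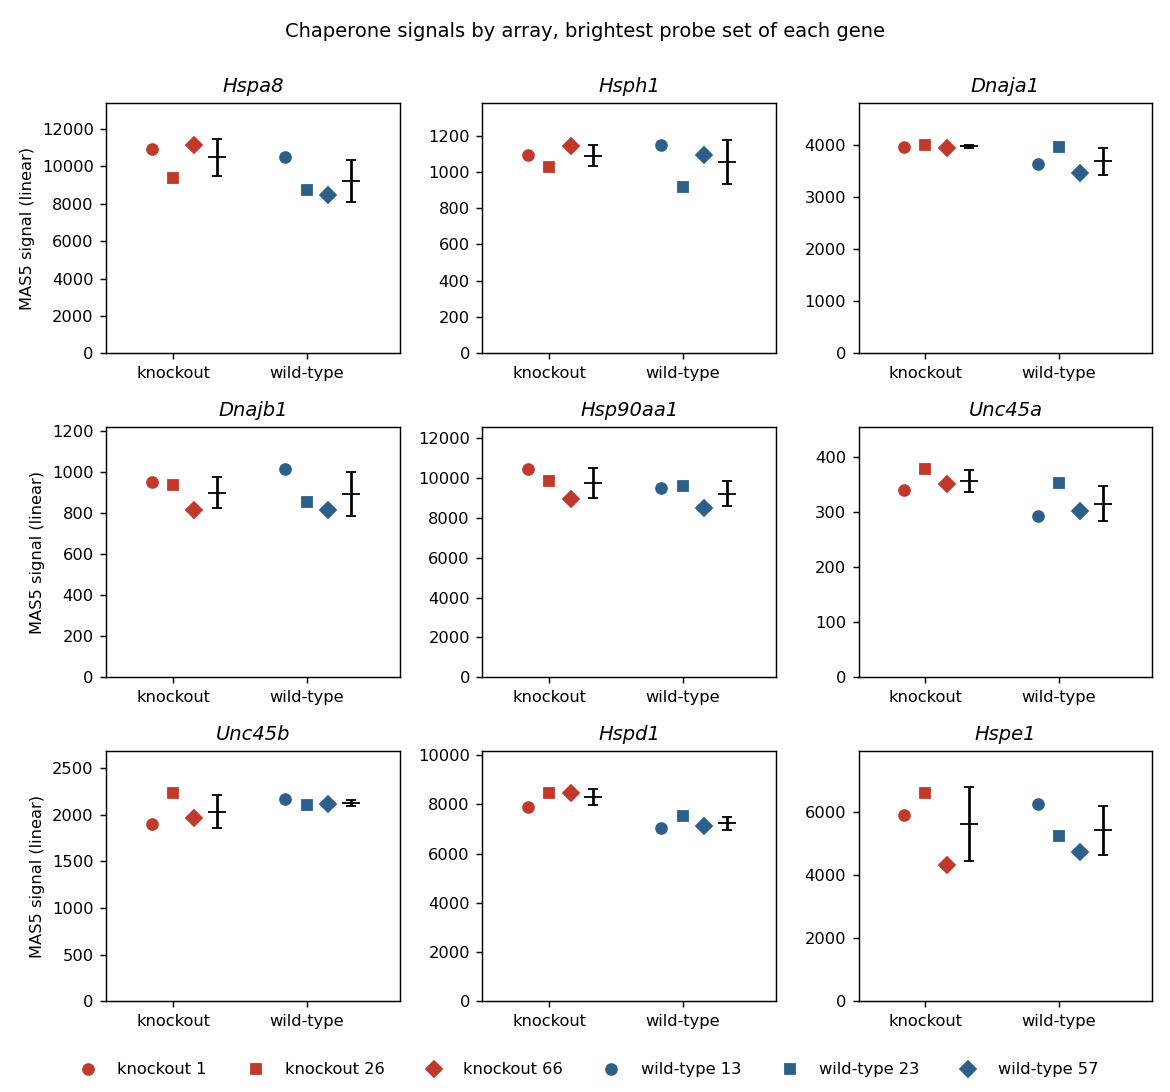
Linear MAS5 signal (vertical axis, from 0) of 9 chaperone genes on the brightest kept probe set, with knockout arrays in red left of wild-type arrays in blue; the bar beside each group is the mean ± SD of 3 arrays. The groups overlap in every panel except Hspd1, where the knockout arrays read 7905 to 8478 and the wild-type arrays 7051 to 7533.

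Hspa8, the constitutive Hsp70 of the cytosol, had 4 kept probe sets. The brightest, 1455789_x_at, read 10915, 9371 and 11166 in knockout 1, 26 and 66, against 10512, 8717 and 8452 in wild-type 13, 23 and 57. Wild-type 13 lay among the knockout arrays, and the difference was 0.19 ± 0.11 (adjusted p in limma 0.976). The next, 1420623_x_at, read 6549, 6654 and 5846 in the knockout and 6076, 5461 and 5243 in the wild-type, a difference of 0.18 ± 0.10. Only wild-type 13 was above the lowest knockout array here. The third, 1420622_a_at, went the other way, at 3068, 2573 and 1789 in the knockout and 3154, 2703 and 2250 in the wild-type (-0.15 ± 0.19). The dimmest kept one gave 0.08 ± 0.29. Both bright probe sets end in _x_at, which marks probes that may also match other transcripts, and Hspa8 has many near-identical processed copies, so its readings are uncertain.

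Hsph1, the Hsp110 that reloads Hsp70, read 1095, 1027 and 1144 on its brightest probe set in the knockout and 1150, 918 and 1093 in the wild-type. The difference was 0.05 ± 0.13, with a 95% interval from -0.23 to 0.33. Its other probe set gave -0.13 ± 0.19, and both sets of readings overlapped between genotypes. Both carry the _a_at ending, for probes shared by several transcripts of 1 gene.

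Dnaja1, a J-domain partner of Hspa8, had knockout readings that lay close together. Its brightest probe set read 3963, 4006 and 3949 in knockout 1, 26 and 66, against 3628, 3967 and 3456 in wild-type 13, 23 and 57. Wild-type 23 alone reached the knockout range, and the difference was 0.11 ± 0.09 (adjusted p in limma 0.976). The second probe set, 1460179_at, gave 0.13 ± 0.11 from 1677, 1875 and 2062 in the knockout and 1666, 1766 and 1684 in the wild-type. The third, ending in _s_at, gave -0.10 ± 0.17.

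Dnajb1, a stress-responsive J-domain protein, overlapped fully between genotypes. It read 955, 937 and 814 in the knockout and 1019, 856 and 816 in the wild-type on the brighter probe set, a difference of 0.01 ± 0.13 with a 95% interval from -0.28 to 0.31. The dimmer one gave -0.12 ± 0.15. The sign of the first turned when knockout 1 (-0.03), knockout 26 (-0.02), wild-type 23 (-0.02) or wild-type 57 (-0.05) was left out.

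Hsp90aa1, the inducible cytosolic Hsp90, had 4 kept probe sets, and the 3 bright ones read alike. The brightest, 1438902_a_at, read 10471, 9859 and 8964 in knockout 1, 26 and 66, against 9518, 9601 and 8483 in wild-type 13, 23 and 57, a difference of 0.08 ± 0.09 with a 95% interval from -0.12 to 0.29. The other bright ones gave 0.09 ± 0.11 and 0.06 ± 0.11. In each genotype the lowest reading of the brightest probe set came from the array with the highest median signal, knockout 66 and wild-type 57. With quantile normalization, where all arrays are given 1 common distribution, the difference of the brightest probe set was -0.04. The dimmest kept probe set, 1433251_at, read 88.7, 152 and 197 in the knockout and 72.2, 85.4 and 114 in the wild-type, near the filter, with a difference of 0.56 ± 0.33. Its knockout 1 reading lay inside the wild-type range. The remaining probe set, 1441827_x_at, missed the filter at 70.1, 166 and 150 in the knockout and 35.3, 75.7 and 104 in the wild-type.

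Unc45b, the myosin co-chaperone of striated muscle, had 1 probe set and was the only one of the 9 genes whose brightest kept probe set had a difference below 0. It read 1897, 2238 and 1967 in knockout 1, 26 and 66, against 2168, 2103 and 2112 in wild-type 13, 23 and 57. The wild-type arrays spanned a narrow band, with knockout 26 above it and the other knockout arrays below. The difference was -0.07 ± 0.11 with a 95% interval from -0.30 to 0.17 (adjusted p in limma 0.984). The difference was -0.14 ± 0.12 without knockout 26 and -0.02 ± 0.12 without knockout 1, and it ranged between these values when any other single array was left out. No difference was established for Unc45b. In such tissue samples a change in cell make-up could not be told apart from a change in RNA per cell, for this or any other member.

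Unc45a, the general form, was dim. Its brightest probe set, 1455912_x_at, read 341, 380 and 352 in the knockout and 293, 352 and 302 in the wild-type, a difference of 0.17 ± 0.15. Wild-type 23 lay among the knockout arrays. The second kept probe set, 1415866_at, gave -0.19 ± 0.26, from 141, 147 and 89.7 in the knockout and 130, 147 and 154 in the wild-type. Its other 2 probe sets averaged 75.6 and 56.4 in the knockout and 57.2 and 57.9 in the wild-type and did not pass the filter. The 2 kept probe sets thus had opposite signs, and no direction is given for this gene.

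Smyd1, which in muscle works with Unc45b and skNAC, and the myosin heavy chains looked at did not pass the test either. Smyd1 and Myh7 lie outside the naming rule and are given for their link to Unc45b, and Myh10 is a non-muscle myosin. On the brightest probe sets the difference was -0.11 ± 0.14 for Smyd1, -0.16 ± 0.12 for Myh6, 0.02 ± 0.09 for Myh7 and -0.12 ± 0.10 for Myh10. Myh6 read 8660, 9460 and 6867 in the knockout and 9526, 9619 and 8534 in the wild-type. The 4 other kept Smyd1 probe sets ran from -0.41 to 0.18.

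Hspd1, the mitochondrial Hsp60, gave the clearest separation among the members, although it failed the adjustment. Its 1 probe set read 7905, 8458 and 8478 in knockout 1, 26 and 66, against 7051, 7533 and 7122 in wild-type 13, 23 and 57. All 3 knockout arrays lay above all 3 wild-type arrays. The means were 8281 ± 325 in the knockout and 7235 ± 261 in the wild-type (SD, n = 3 each), a difference of 0.19 ± 0.08 with a 95% interval from 0.01 to 0.38. The limma p was 0.0388 unadjusted and 0.976 adjusted. The exact permutation test, two-sided, gave p = 0.1, the smallest that 20 ways of assigning the arrays allow. The unadjusted p moved above the threshold without knockout 26 (0.122), knockout 66 (0.0609), wild-type 13 (0.117), wild-type 23 (0.0558) or wild-type 57 (0.0660), and stayed at 0.0331 without knockout 1. After quantile normalization the readings were 7465, 8193 and 8531 in the knockout and 7026, 7575 and 7852 in the wild-type, which overlap, and the difference was 0.11. The cushion marker sums and the control 3' to 5' ratios given above also separate the genotypes, and their part in the Hspd1 reading was not tested.

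Hspe1, the mitochondrial Hsp10 that caps Hsp60, overlapped between genotypes. Its brighter probe set, 1450668_s_at, read 5900, 6610 and 4322 in knockout 1, 26 and 66, against 6258, 5244 and 4729 in wild-type 13, 23 and 57, a difference of 0.04 ± 0.16. Knockout 26 held the highest and knockout 66 the lowest reading of all 6 arrays. Without knockout 66 the difference was 0.22 (adjusted p in limma 0.701). The plain probe set of Hspe1, 1422579_at, read 1214, 1178 and 1233 in the knockout and 1191, 1204 and 908 in the wild-type (0.14 ± 0.13), with wild-type 57 alone far below. Over the 6 arrays with each genotype's mean subtracted, the brightest probe sets of Hspd1 and Hspe1 had a Pearson r of -0.28. Without that subtraction it was -0.04, and the Hspe1 probe sets had an r of 0.30 with each other. The pair shares the 18 capitals printed above, and whether its genes vary together was not tested.

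**Figure D2:**
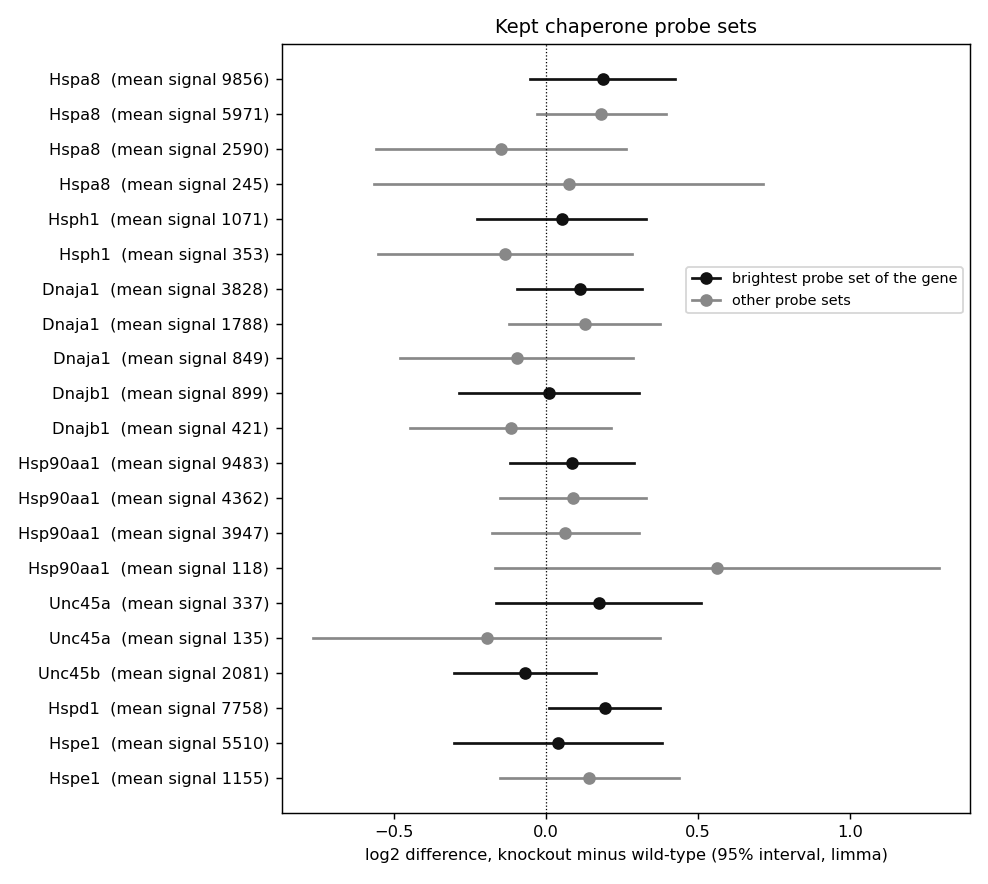
Log2 difference (horizontal axis, knockout minus wild-type on the log2(signal + 16) scale) of the 21 kept chaperone probe sets, as points with 95% intervals from limma; black marks the brightest probe set of a gene and grey the others, with the mean signal of 6 arrays in the label. The interval of Hspd1 runs from 0.01 to 0.38 and lies above 0, and the other 20 intervals cross 0.

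Probe sets of the same gene often disagreed, which limits what a single reading can carry. Of the 7 genes with more than 1 kept probe set, 5 had probe sets on both sides of 0: Hspa8, Hsph1, Dnaja1, Dnajb1 and Unc45a. Hsp90aa1 and Hspe1 kept 1 sign. Over the 6 arrays the 19 pairs of probe sets of 1 gene had Pearson r from -0.63 to 0.93, with 6 pairs above 0.5 and 6 below 0. The highest was between 2 bright Hsp90aa1 probe sets, 1438902_a_at and 1437497_a_at, and the lowest between 2 of Dnaja1, 1460179_at and 1459835_s_at. These r share arrays and scaling and are given as descriptions.

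Signs leaned upward in bright probe sets, among the members and on the whole array. Of the 21 kept member probe sets 15 had a difference above 0, against 48.2% of all kept probe sets. Of the 13 with a mean signal over 1000, 11 were above 0, and of the 8 dimmer ones 4 were. The 2252 brightest kept probe sets, from a mean signal of 1398, had 64% above 0 and a median difference of 0.04. By gene, 8 of 9 members were above 0 with a median of 0.08, beside 50.5% and a median of 0.00 over all 11648 genes (0.002 before rounding). After quantile normalization 6 of the 9 genes and 13 of the 21 probe sets were above 0, against 48.6% of all kept probe sets. The members' probe sets then had a median of 0.04, those 2252 a median of -0.003 and all kept probe sets a median of -0.008.

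The mean deviation of the 9 genes from their own averages was 0.06, 0.08 and -0.01 in knockout 1, 26 and 66, against 0.03, -0.04 and -0.12 in wild-type 13, 23 and 57. Wild-type 13 lay above knockout 66, so the groups overlapped. The lowest array of each genotype was the one with the highest median signal. With quantile-normalized values the deviations were -0.01, 0.05 and 0.01 in the knockout arrays and 0.02, -0.04 and -0.03 in the wild-type arrays, with the 2 groups overlapping again.

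**Figure D3:**
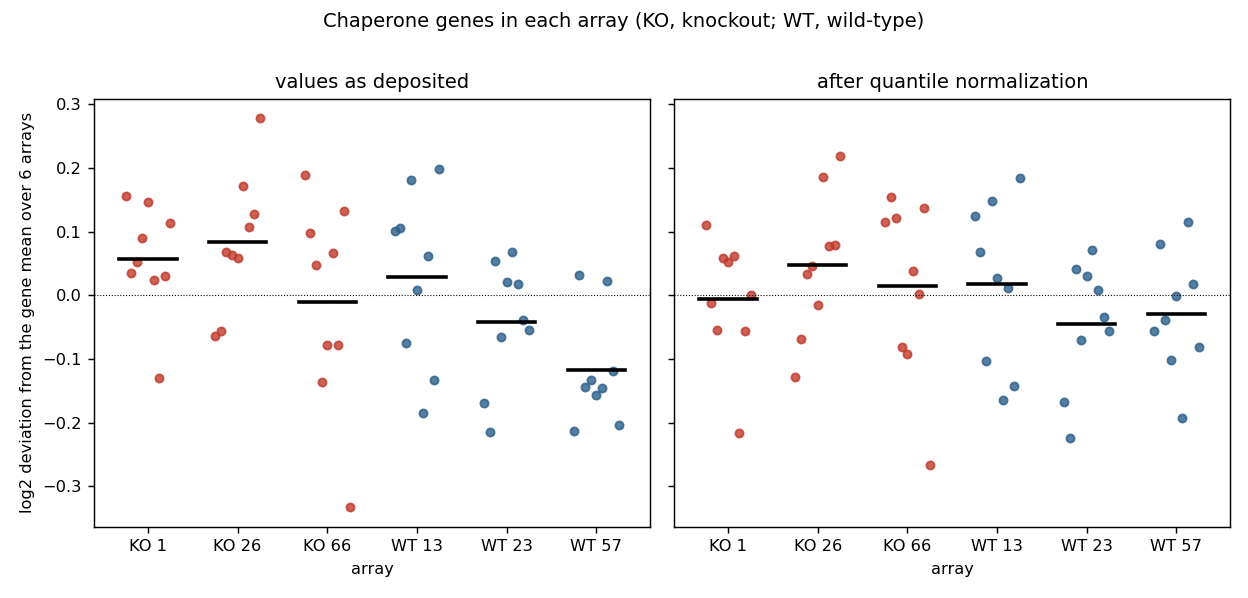
Log2 deviation of each of 9 chaperone genes from its mean over 6 arrays (vertical axis), by array (horizontal axis), with values as deposited on the left and quantile-normalized values on the right; points are genes and black bars their mean. Wild-type 57 has the lowest mean on the left, at -0.12, and the array means lie between -0.04 and 0.05 on the right.

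Correlations between members took both signs. The same shares over all gene pairs were not computed, and probe sets of the same gene often disagreed too. Whether the members vary together was therefore not tested. Over the 36 pairs of member genes, with each genotype's mean subtracted, 9 had an r above 0.5 and 16 an r below 0. Hsp90aa1 went with Hspe1 (r = 0.76) and Dnajb1 (0.76), and Dnajb1 with Hspe1 (0.90). Hspd1 went with Unc45a (0.84) and Dnaja1 (0.60), and Hsph1 ran opposite to Unc45a (-0.95). These pairs were picked from the 36 and hold for the brightest probe sets only. Without the subtraction, the kept probe sets of Unc45a had an r of -0.13 with each other, and those of Hsph1 an r of 0.16. Of the 11647 other genes, 262 had an r over 0.95 with Hsp90aa1, 136 with Hspe1, 68 with Hspd1 and 49 with Unc45b. How many genes would reach such an r by chance on so few arrays was not tested. The genes named next are the highest of all those compared, so a high r is no sign of a shared control. Their names and the counts are given as descriptions. The genes most like Hsp90aa1 were Ndufc1, Vnn1 and Mex3d, each at r = 0.999 or 0.998. Those most like Unc45b were Asap2, Cacna2d2 and Eif4a2 (0.996, 0.996 and 0.995), those most like Hspd1 were 2700046A07Rik, Fancf and Plekhf2 (0.995, 0.995 and 0.994), and those most like Hspe1 were Rnd3, Prelid1 and Npepps (0.999, 0.993 and 0.993).

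Genes that work with the members gave no call either. Of 77 related genes in 6 lists, 70 had a kept probe set, 0 had an adjusted p under 0.05 in limma, and 3 had an unadjusted p under 0.05 (4.29%, beside 4.73% of all genes). Their median difference was 0.02, with 40 above 0 and 30 below. Hsf1 was among the 7 with no kept probe set.

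In the Hsp70 system 6 of 15 genes were above 0. Hspa1b, the stress-inducible Hsp70, read 366, 340 and 339 in knockout 1, 26 and 66, against 294, 287 and 285 in wild-type 13, 23 and 57, a difference of 0.26 ± 0.15 (adjusted p in limma 0.976). Its knockout arrays all lay above its wild-type arrays, which was so in either direction for 3 of the 15 (20%), beside 10.5% of all kept probe sets. St13, an Hsp70-interacting protein, gave 0.20 ± 0.11, and its other kept probe set gave -0.22. Hspa1a had no kept probe set and is nearly identical to Hspa1b, so the reading may hold both.

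The other J-domain genes, 1 of the 6 lists looked at, held all 3 unadjusted results. These were 3 of 15 genes (20%, beside 4.73% of all genes). Dnaja4 read 320, 119 and 157 in the knockout and 374, 308 and 312 in the wild-type, a difference of -0.80 ± 0.29 (adjusted p in limma 0.976), with 1 knockout array inside the wild-type range. Its other probe set gave 0.33. Dnajc8, a J-domain protein found with splicing factors, gave 0.24 ± 0.10, and its other probe set -0.05. Dnajb4, outside the naming rule and chosen after its values were seen, read 1286, 927 and 858 in the knockout and 1258, 1248 and 1371 in the wild-type (-0.35 ± 0.15). Its 2 other kept probe sets gave -0.51 and -0.004.

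Among the Hsp90 co-chaperones 15 of 19 genes were above 0, with a median of 0.07, and none of the 19 passed even without adjustment. The phosphatase Ppp5c gave 0.36 ± 0.17 while its 2 other probe sets lay at -0.22 and -0.14. Nudc gave 0.18 ± 0.11, and its other probe set -0.22. The mitochondrial chaperones and proteases split evenly, 6 above and 6 below 0. Dnaja3, the mitochondrial J-domain protein, read 458, 427 and 423 in the knockout and 381, 331 and 367 in the wild-type, a difference of 0.27 ± 0.14, while its other kept probe set gave 0.001. Clpx, the unfolding subunit of the Clp protease, gave -0.31 ± 0.17, and its other probe set -0.21. Of the heat shock factor list 3 of 4 genes were kept, Hsf2 at 0.18 ± 0.24 and the factor-binding Hsbp1 at -0.13 ± 0.12.

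**Figure D4:**
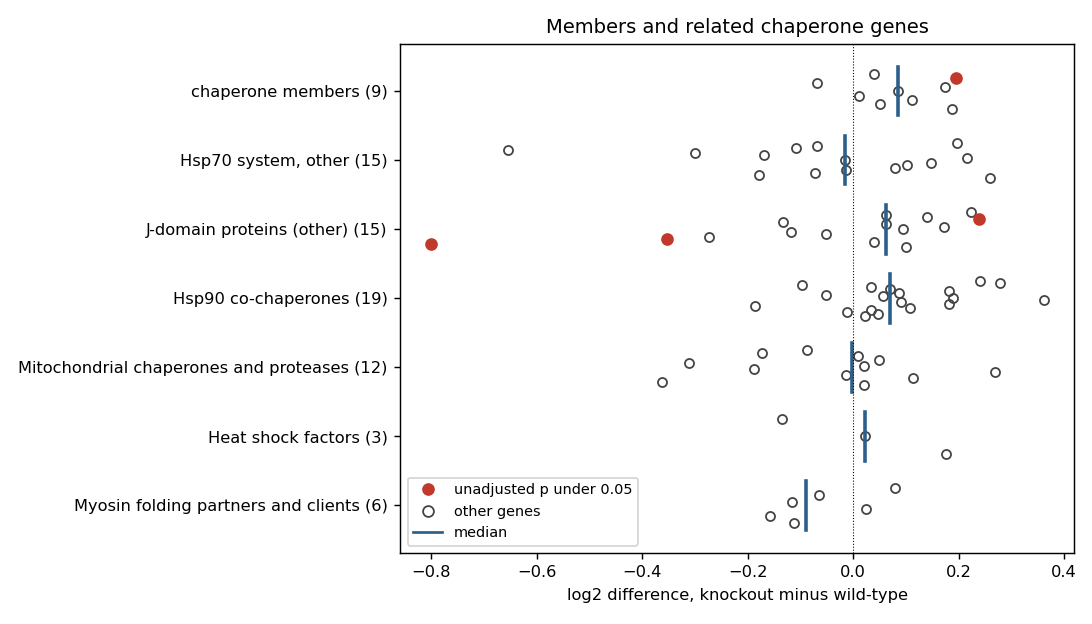
Log2 difference, knockout minus wild-type (horizontal axis), of the 9 chaperone members and of 70 related genes in 6 lists, each gene by its brightest kept probe set; filled points have an unadjusted p under 0.05 and blue lines are medians. The members' median is 0.08, and the filled points are Hspd1, Dnajc8, Dnajb4 and Dnaja4, the last at -0.80.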

How the data were processed

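The authors deposited intensities for each probe set, and the submitters' processing notes name GCOS and MAS5. No source used here gives their versions, settings or detection calls. The mean signal after trimming 2% at each end was 250 on each array. The number of arrays, 3 per genotype, limits the precision, and the median SE of a log2 difference was 0.20 over kept probe sets. Genes were named through the platform annotation, which gave 1 symbol for 34958 of 45101 probe sets, several for 932 and none listed for 9211, and 64 probe sets were controls.

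Intensities were used as log2(intensity + 16), and such fold changes understate those of dim genes. Non-control probe sets with a mean above the median of 100.3 were kept and fitted with lmFit and eBayes with a trend in limma 3.58.1 under R 4.3.3, without a block, since the genotypes share no array number. A gene was read by its brightest kept probe set. The fit was also run on simulated data, but no outcome is given here, so that run is no check of the differences reported. Named genes are all members, the 2 of smallest p in each related list (Smyd1, Myh7 and Dnajb4 were added outside this rule), and the 3 most alike for Unc45b, Hsp90aa1, Hspd1 and Hspe1. Members and lists were chosen with earlier results of these data known. Alternatives were pseudocounts of 1 and 64, no filter or one at the 70th percentile, quantile or median normalization, eBayes without a trend or robust, array weights, other probe set choices and each array left out. Figures used Matplotlib 3.10.9 under Python 3.11.15.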

Additional observations from a re-analysis of the deposited data

How the results depend on the processing

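Genes were read by the brightest probe set available or by the average of their probe sets. Over the 17 alternatives Hspa8 (0.066 to 0.284), Dnaja1 (0.048 to 0.165) and Hspd1 (0.106 to 0.227) then kept a difference above 0. Other probe sets of Hspa8 and Dnaja1 did not. Hspa8 1420622_a_at was above 0 only without knockout 66 (0.069), and Dnaja1 1459835_s_at only without wild-type 13 (0.044). None of the 9 genes passed an adjusted p of 0.05 in any alternative, and the members' median stayed between 0.047 and 0.139. The sign turned for Hsp90aa1 (-0.037) and Hspe1 (-0.032) with quantile normalization, for Unc45b with array weights (0.012), for Unc45a without suffixed probe sets (-0.195), and, where probe sets were averaged per gene, for Unc45a (-0.010), Dnajb1 (-0.053) and Hsph1 (-0.042). With single arrays left out, Dnajb1 ran from -0.053 to 0.105, Hspe1 from -0.089 to 0.216 and Hsph1 from -0.043 to 0.117; the sign turned for Dnajb1 without knockout 1 or 26 or wild-type 23 or 57, for Hspe1 without knockout 1 or 26 or wild-type 57, and for Hsph1 without wild-type 23. Member probe sets at an unadjusted p under 0.05 numbered 0 with no filter, quantile normalization, median centring or no trend. They numbered 3 with array weights (12% of all kept probe sets) and 0 to 3 with single arrays left out (2.93% to 7.7% of all). The highest count came without knockout 1, beside 7.19% of all, and the highest share without knockout 66. Non-overlapping member probe sets numbered 2 with median centring (8.94% of all) and 2 to 5 with single arrays left out (17.5% to 24.5% of all). Array weights gave 6 called probe sets among all 22518, and leaving out single arrays gave 0 to 2, the highest without knockout 1. Hsph1 had no probe set without a suffix. The cause of each change was not tested. No paired analysis was possible because the genotypes share no array number. Signal near the filter limits the second Unc45a and the dim Hsp90aa1 probe sets.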
